A study of Mus musculus with 7 samples.

Results

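The baseline transcriptome of the epicardial explant was described from the 4 wild type RNA sequencing libraries of a series of 7. Hearts of E12.5 mouse embryos were reduced to the ventricles and laid on gelatinized wells. The heart was taken away after 48 hours, and the cells that had grown out were kept for 72 hours more before RNA was extracted. All 4 libraries came from untreated wild type embryos of a mixed background (C57BL/6, 129S4Sv/Jae and 129S6/SvEvTac), and they are called wild type replicates 1 to 4 here. The libraries were chosen by genotype alone, and those of the other genotype were not used. The labels do not say whether the replicates came from separate embryos, pools or wells, so the spread given below may be technical in part. The explant was not sorted, and each library holds the RNA of every cell left on the well.

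The epicardium is the mesothelial layer that covers the heart. During development some of its cells undergo epithelial-to-mesenchymal transition, enter the myocardium and give rise to fibroblasts, smooth muscle cells and pericytes. Wt1, Tbx18 and Tcf21 are transcription factors long used to mark it, and Aldh1a2 makes its retinoic acid. Epicardial cells grown out on a dish spread, form stress fibres and can take on mesenchymal and smooth muscle features.

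Total counts were 2263377, 1024898, 2732236 and 2392374 in replicates 1 to 4, so replicate 2 was the shallowest. Levels are given as CPM, counts per 1000000 of the library total, and 3 counts correspond to 1.33, 2.93, 1.10 and 1.25 CPM in the 4 libraries. At least 1 CPM in each library was reached by 11363 of 22738 gene rows, or 50%. A mean of at least 10 CPM was reached by 9032 rows, or 39.7%, and 6905 rows held 0 counts in all 4 libraries. Over 9798 genes, the biological coefficient of variation estimated by edgeR, a spread between libraries beyond counting noise, was 0.167. It was 0.152 when replicate 2 was left out and 0.180 when replicate 3 was. Replicate 2 stood furthest from replicate 1, with 120 genes of at least 50 CPM differing over 2-fold between them against 25 between replicates 3 and 4. Sex-linked genes separated the libraries into pairs: Xist, the RNA that coats the inactive X chromosome, was at 263 and 235 CPM in replicates 1 and 3 and at 0 counts in replicates 2 and 4. The Y-linked Ddx3y was at 234 and 221 CPM in replicates 2 and 4 and at 1 count in each of the others. Replicates 1 and 3 therefore read as female and replicates 2 and 4 as male, so the pairs came from different embryos. Levels below are means ± SD over the 4 libraries (n = 4) in CPM. Where genes are ranked against each other, CPM was divided by the exon length in kb, because a long transcript gathers more counts.

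Beside catalytic RNAs, contractile, matrix and secreted matricellular genes held the top of the transcriptome. Mitochondrially encoded genes had 0 rows, so the ranks and shares given here leave them out. Thbs1, which encodes the matricellular protein thrombospondin-1, drew the most counts of any gene row, with 10417, 10916, 12272 and 13485 CPM in replicates 1 to 4 and a mean of 11772 ± 1385. The catalytic RNAs Rmrp and Rpph1, the RNA parts of RNase MRP and RNase P, followed at 8948 ± 1641 and 8859 ± 2525 CPM. The actin-binding proteins Tpm1 (tropomyosin 1) and Flna (filamin A) stood at 8463 ± 554 and 7758 ± 329 CPM. Further matrix and matricellular genes were Col5a2 at 5835 ± 1379, Col4a1 at 5769 ± 1140.1, Sparc at 4841 ± 962 and Fn1 (fibronectin) at 4700.1 ± 1817 CPM. Fstl1, a secreted follistatin-like protein, was at 4584 ± 602 CPM. Also among the first 15 were Actb at 6572 ± 884, Tagln at 5202 ± 332, Acta2 at 5035 ± 158 and Ahnak at 4333 ± 583 CPM.

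**Figure D1:**
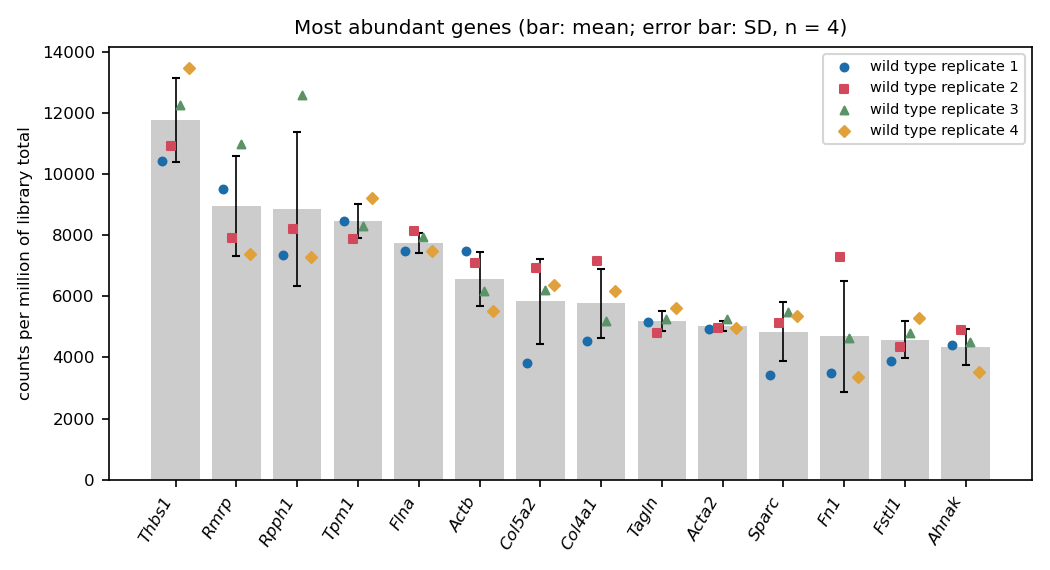
Level in CPM (vertical axis, starting at 0) of genes among the 15 with the most counts, with the mean as a bar, the SD over the 4 wild type libraries as an error bar and each library as a point. Thbs1 leads at 11772 CPM, and the fibronectin gene Fn1 shows replicate 2 at 7292 CPM, above the 3374 to 4628 CPM of the other 3 libraries.

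Per kb of exon the order changed, and short transcripts rose. After Rmrp, Rpph1 and Rprl3, a gene related to the RNase P RNA, came Actb at 3423 ± 460.2 CPM per kb, Tagln at 3261 ± 208, Lgals1 at 2489 ± 372 and Acta2 at 2474 ± 77.4. Tmsb4x, which encodes the actin-sequestering peptide thymosin beta 4, stood at 2329.6 ± 354 CPM per kb and Thbs1 at 2013 ± 237. S100a4 and S100a6, small calcium-binding proteins, were at 1767 ± 389 and 1694 ± 122 CPM per kb. Neighbours such as Actb and Tagln, Lgals1 and Acta2, or Sparc (1779 ± 354) and S100a4 differed by less than 1 SD.

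The 100 most abundant genes held 24.6 ± 1.40% of the counts, with 23.0, 26.1, 25.3 and 23.9% in replicates 1 to 4. The 10 most abundant held 7.62 ± 0.385%. The 42 rows of collagen chains alone held 3.01 ± 0.754%, from 2.17% in replicate 1 to 3.99% in replicate 2, and the 4 tropomyosin genes held 1.08 ± 0.0626%. The RNAs of the RNase complexes held 2.06 ± 0.469%, cytosolic ribosomal protein genes 1.09 ± 0.109%, and 39 Hox genes 0.00401 ± 0.00093%, with 24 of the 39 at 0. These families were chosen after their values were seen. The share of ribosomal proteins and of several housekeeping genes is a low reading. Where a gene has close copies in the genome, many of its counts stood in the table's second column, which was not used. That column held 96.8% of the counts of Gapdh and 76.3% of those of Eef1a1. Among the abundant genes it held 42.6% for Ahnak, 28.9% for Rpph1 and 17.3% for Actb, so the levels of these 3 are uncertain.

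Markers of 8 cell identities were then set side by side. The epicardial and mesothelial list had a median of 43.3 CPM per kb over its 23 measured genes, the fibroblast and mesenchyme list 36.3 over 21, and the smooth muscle and pericyte list 16.4 over 22. Macrophage and leukocyte genes had a median of 3.61 CPM per kb over 17, erythroid genes 1.07 over 11 with a length, cardiomyocyte genes 0.357 over 21, endothelial and endocardial genes 0.282 over 18, and neural crest, glial and neuronal genes 0.0843 over 12. The macrophage median was 1.99 without replicate 4 and the neural one 0.0411 without replicate 1. The median over all gene rows with a length was 1.12 CPM per kb. The order of the first 2 lists was not fixed: epicardial genes stood first in replicates 1 and 2 (51.4 and 47.1 CPM per kb against 29.6 and 33.8), and fibroblast genes stood first in replicates 3 and 4 (61.0 and 38.0 against 33.4 and 35.9). The smooth muscle list stood below both and above the other 5 lists in each of the 4 libraries. Macrophage genes came next in 3 libraries and erythroid genes in replicate 2. In bulk RNA, fewer cells of a type and less RNA per cell cannot be told apart, so these levels are not shares of cells.

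**Figure D2:**
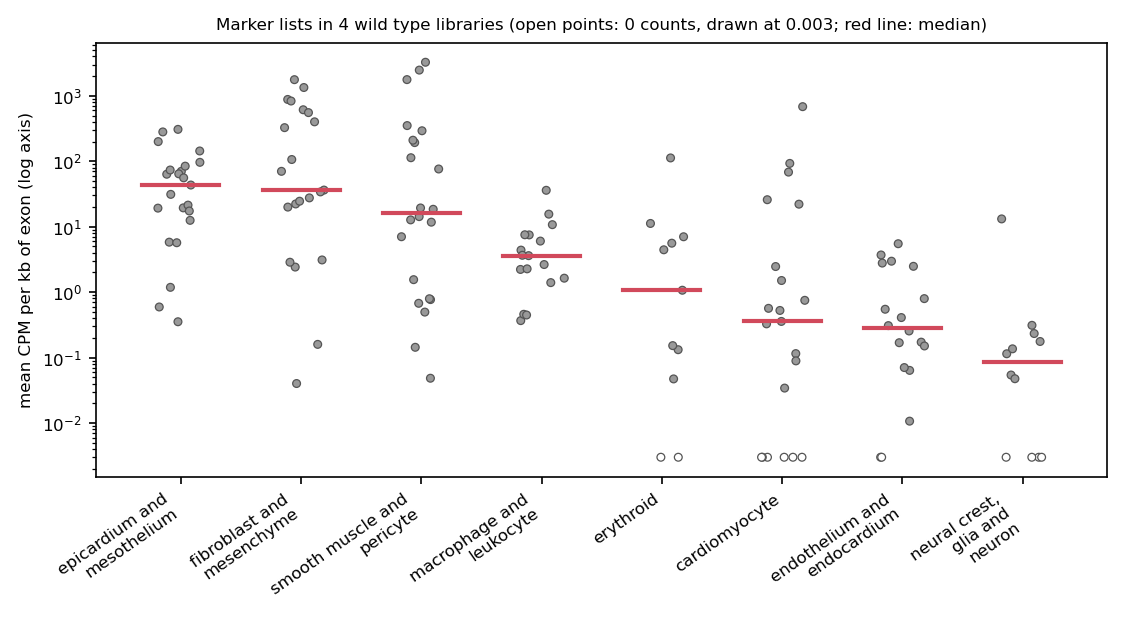
Mean level of each member of 8 marker lists in CPM per kb of exon (vertical log axis), with 1 point per gene, an open point for genes with 0 counts in all 4 libraries and a red line at the median. Epicardial, fibroblast and smooth muscle lists have medians of 43.3, 36.3 and 16.4 CPM per kb, and the cardiomyocyte, endothelial and neural lists have medians under 1.

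The label of the explant was checked against its defining markers, and each of the 6 epicardial genes was read in each library. Upk3b, a uroplakin of mesothelial surfaces, was at 240.3, 351, 362 and 408 CPM in replicates 1 to 4, a mean of 340.3 ± 71.0. Bnc1, a zinc finger factor of mesothelium and basal epithelia, was at 298, 307, 246 and 327 CPM. These values lie within 1.70-fold and 1.33-fold of each other. Tbx18, a T-box repressor, was at 273, 221, 156 and 161 CPM, with replicates 1 and 2 above replicates 3 and 4. Aldh1a2, the main enzyme of embryonic retinoic acid synthesis, was at 165, 165, 131 and 176 CPM. Tcf21, a basic helix-loop-helix factor of the epicardium and of fibroblast precursors, was at 62.7, 89.8, 56.4 and 84.4 CPM. Wt1, the zinc finger factor that defines the developing epicardium, was at 66.3, 77.1, 56.4 and 61.4 CPM, from 79 to 154 counts per library. By mean CPM Wt1 was the least abundant of the 6, at 65.3 ± 8.84 against 73.3 ± 16.3 for Tcf21. Tcf21 was below Wt1 in replicate 1 and level with it in replicate 3. Per kb Wt1 was lowest too, at 19.4 ± 2.63 CPM per kb against 31.2 ± 6.92 for Tcf21 and 43.3 ± 11.9 for Tbx18. Bnc1, Aldh1a2 and Upk3b stood at 63.4 ± 7.40, 70.3 ± 8.74 and 96.4 ± 20.1 CPM per kb. Of these neighbours, Tcf21 and Tbx18, Bnc1 and Aldh1a2, and Aldh1a2 and Upk3b overlapped within 1 SD of each mean.

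Surface proteins led the mesothelial list. Msln, the mesothelial surface protein mesothelin, was at 669.5 ± 185 CPM (307 ± 84.9 per kb), with replicate 2 highest at 921 and replicate 1 lowest at 477. Lrrn4, a leucine-rich repeat surface protein, was at 743 ± 191 CPM and Upk1b, another uroplakin, at 532 ± 42.6 CPM. Sema3d, a secreted semaphorin, stood at 413 ± 80.7 CPM and Gpm6a, a membrane glycoprotein, at 271 ± 71.1 CPM. The simple-epithelial keratins Krt7, Krt18 and Krt19 were at 263 ± 25.2, 106 ± 8.60 and 27.4 ± 5.04 CPM. Their partner Krt8 read 41.8 ± 13.4 CPM with 54.5% of its counts in the second column, so its level is uncertain. Of the 23 genes with a row, 22 reached 1 CPM in every library, 95.7% against the 50% of all rows, and 18 reached a mean of 10 CPM, against 39.7%. The lowest were Scx at 6.01 ± 1.88, Nkain4 at 4.92 ± 2.50, Gata5 at 3.88 ± 2.24, Bnc2 at 2.63 ± 0.506 and Fam70a at 1.45 ± 1.01 CPM, or 0.957 without replicate 2. Muc16, the remaining entry of the list, had no row under that name.

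Of 22 smooth muscle and pericyte genes, 19 reached 1 CPM in every library, against 50% of all rows. A mean of 10 CPM was reached by 15, against 39.7% of all rows. Acta2, alpha smooth muscle actin, was at 4932, 4959, 5269 and 4980.0 CPM, within 1.07-fold across the 4 libraries. Des, the muscle intermediate filament desmin, was at 487, 792, 519 and 539 CPM, with replicate 2 above the others. Cald1 (caldesmon) stood at 1795 ± 132, Tpm2 at 697 ± 89.4 and Mcam, a surface adhesion molecule of mural cells, at 627 ± 159 CPM. Cnn1, Actg2 and Myh11 were lower and less even between the libraries. Cnn1 (calponin) was at 151, 281, 333 and 378 CPM. Actg2, the gamma smooth muscle actin, was at 62.7, 114, 87.1 and 153 CPM, and Myh11, smooth muscle myosin heavy chain, at 32.3, 70.3, 90.4 and 143 CPM. In all 3 genes replicate 1 was lowest and replicate 4 highest. Over the list, 12 of the 20 members with a mean of at least 1 CPM were lowest in replicate 1, against 22.9% of all 12606 genes at that level. Smtn (smoothelin) and Mylk, the myosin light chain kinase, were at 55.6 ± 20.8 and 56.9 ± 22.3 CPM. Myocd, the cofactor of smooth muscle gene expression, was at 7.96 ± 3.93 CPM and the actin-binding Synpo2 at 8.74 ± 2.38.

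Genes used to mark pericytes ran from few counts to over 100 CPM. Rgs5, one of them, had 6, 0, 31 and 0 counts in the 4 libraries, Kcnj8 had 0, 0, 4 and 0, and Abcc9 had 0, 0, 1 and 3. The last 2 encode the pore and the sulfonylurea receptor of a potassium channel of pericytes. The growth factor receptor Pdgfrb and the proteoglycan Cspg4 (NG2), which pericytes share with other mesenchyme, were at 64.3 ± 8.35 and 149.96 ± 18.1 CPM, each within 1.30-fold between libraries.

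**Figure D3:**
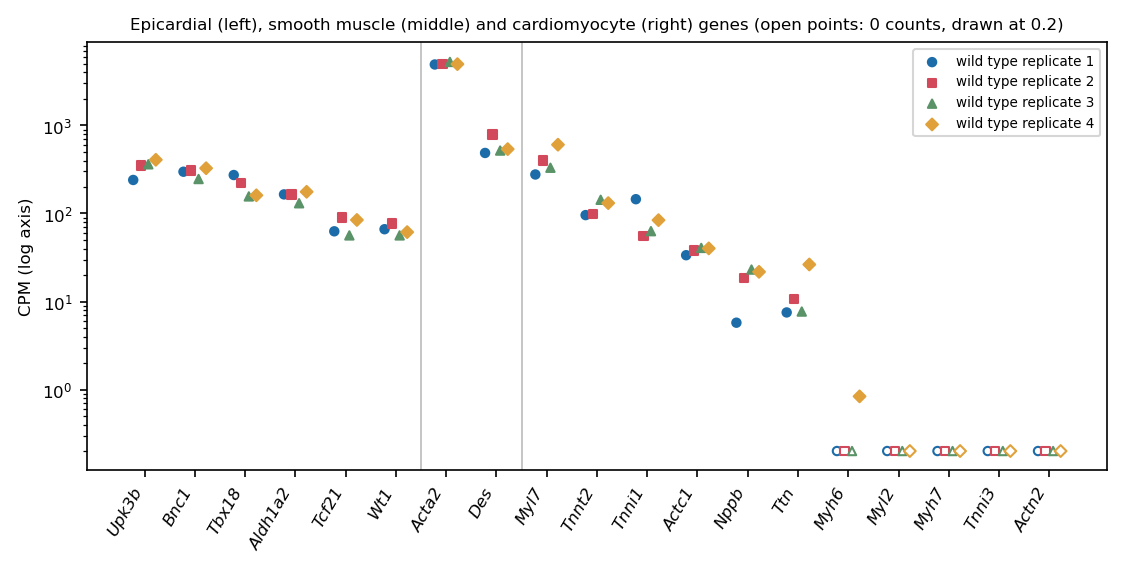
Level in CPM (vertical log axis) of epicardial genes on the left, smooth muscle genes in the middle and cardiomyocyte genes on the right, with 1 point for each wild type library and open points for 0 counts. The 4 libraries lie close together for Acta2, Bnc1 and Wt1 and spread out for Nppb, from 5.74 to 23.1 CPM, and Myl2, Myh7, Tnni3 and Actn2 are at 0 counts in each.

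Per kb, the fibroblast list was led by S100a4 and by Vim (vimentin), at 1340.5 ± 200.5 CPM per kb, followed by Col5a2 at 881 ± 208 and the fibulin Fbln2 at 834 ± 105. The fibrillar chains Col1a2 and Col3a1 were at 3277 ± 1125 and 2229.6 ± 443 CPM. Col1a1 was at 995, 4745, 1206 and 799 CPM, a mean of 1936 ± 1879.6 that was 1000.3 without replicate 2. Its partner chain Col1a2 had the same library highest, at 4849 against 2191 to 3145 CPM. Pdgfra, a receptor of fibroblast precursors, stood at 242 ± 73.3, the collagen receptor Ddr2 at 211 ± 32.3, the proteoglycan Dcn (decorin) at 136 ± 51.9, Postn (periostin) at 119 ± 66.5 and the surface protein Thy1 at 63.9 ± 15.9 CPM. The 4 lowest members in CPM were Lum at 5.92 ± 3.68, Mfap5 at 4.32 ± 2.09, Dpt at 3 counts in all and Fap at 1 count in all.

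In the basement membrane list Sparc was highest per kb, followed by the collagen IV chains Col4a1 at 872 ± 172 and Col4a2 at 514 ± 113 CPM per kb. Lamb1 and Lamc1, beta and gamma chains that several laminins share, were at 903 ± 78.2 and 669 ± 58.0 CPM. Of the alpha chains, Lama5 was at 264 ± 144, Lama4 at 29.7 ± 9.51, Lama2 at 26.2 ± 9.52 and Lama1 at 12.7 ± 9.46 CPM. The epithelial chains Lama3 and Lamb3 were at 0.990 ± 0.662 and 0.531 ± 0.421 CPM. Hspg2, the proteoglycan perlecan, was at 289, 1294, 291 and 252 CPM, and its mean of 531 ± 509 became 277 without replicate 2. Replicate 2 was highest for 11 of the 17 members of at least 1 CPM, against 26.1% of all genes, and replicate 1 was lowest for 13, against 22.9%.

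Cardiomyocyte genes were present in part. Their 21 entries summed to 573, 633, 618 and 922 CPM in replicates 1 to 4. A mean of at least 10 CPM was reached by 6 of the 21 genes, against 39.7% of all rows. Myl7, the atrial myosin light chain that the embryonic heart expresses widely, was at 277, 400.0, 331 and 605 CPM. Tnnt2, cardiac troponin T, was at 95.9, 98.5, 143 and 131 CPM, and Tnni1, the slow troponin I of the embryo, at 145, 55.6, 63.0 and 84.0 CPM. Replicate 4 was highest for Myl7, replicate 3 for Tnnt2 and replicate 1 for Tnni1. Actc1, cardiac alpha actin, read 38.1 ± 3.21 CPM with 43.4% of its counts in the second column, so its level is uncertain. The natriuretic peptide gene Nppb was at 17.3 ± 7.91 CPM and the giant sarcomere gene Ttn at 13.1 ± 8.97 CPM, or 8.64 without replicate 4.

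The other 15 cardiomyocyte genes were under 10 CPM. Tnni3, Actn2, Myl2, Myl3, Myh7 and Ckm had 0 counts in all 4 libraries, which allows up to 0.357 CPM over the pooled 8412885 counts. Myh6, the alpha myosin heavy chain, had 2 counts, both in replicate 4, and the cardiac homeobox factor Nkx2-5 was at 0.544 ± 0.447 CPM. Whether the reads of Myl7, Tnnt2 and Tnni1 come from cardiomyocytes left on the well was not tested.

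Because the list split in this way, the promoters of its genes were read for the CArG box, the binding motif of serum response factor, whose gene Srf was at 117 ± 7.87 CPM here. The motif was searched by its name's consensus in the 250 bases upstream of each start site in RefSeq (GRCm38.p6). It reads as the same motif on both strands. It was present in 482 of all 32851 windows, or 1.47%. In the cardiomyocyte list 3 of 21 genes had it, Myl7, Actc1 and Myl3, and 2 of those 3 were among the 6 genes of at least 10 CPM. None of 16 smooth muscle genes and none of 18 epicardial genes with a window held an exact match. Tagln, Actg2, Myh11, Pdgfrb, Myocd and Heyl of the smooth muscle list had no window and were not searched. The same holds for Wt1, Upk1b, Msln, Krt19, Scx and Nkain4 of the epicardial list. Looser matches and sites outside the 250 bases were not searched either. These values therefore do not show that smooth muscle or epicardial genes lack the motif. The 200 bases upstream of the start are shown for the 3 genes that matched, because Myl7 was the most abundant gene of the list and Myl3 was at 0 with the same motif present; capitals mark the motif. The choice of motif and genes was made after their values were seen, and a match describes letters only.
Myl7, chr11:5898783-5898982, minus strand: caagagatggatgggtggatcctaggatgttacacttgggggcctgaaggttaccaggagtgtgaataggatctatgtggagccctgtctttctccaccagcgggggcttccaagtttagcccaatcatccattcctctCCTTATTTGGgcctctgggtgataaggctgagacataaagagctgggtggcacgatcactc
Actc1, chr2:114052876-114053075, minus strand: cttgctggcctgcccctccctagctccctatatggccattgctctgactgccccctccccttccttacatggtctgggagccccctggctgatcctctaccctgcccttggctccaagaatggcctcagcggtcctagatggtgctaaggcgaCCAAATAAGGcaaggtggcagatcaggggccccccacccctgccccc
Myl3, chr9:110763478-110763677, plus strand: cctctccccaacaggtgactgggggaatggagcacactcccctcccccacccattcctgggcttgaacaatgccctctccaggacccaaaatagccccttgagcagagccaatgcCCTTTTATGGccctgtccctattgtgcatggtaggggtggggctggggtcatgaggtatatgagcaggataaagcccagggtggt
The motif lay 61 to 52 bases upstream of the start of Myl7, 47 to 38 bases upstream of that of Actc1 and 85 to 76 bases upstream of that of Myl3.

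A mean of 10 CPM was reached by 3 of 18 endothelial genes and 1 of 12 neural genes, against 39.7% of all rows. The endothelial list summed to 83.9 to 124 CPM over the 4 libraries. Its most abundant members were Flt1, a VEGF receptor, at 40.6 ± 13.7 CPM, Tek, the angiopoietin receptor, at 25.8 ± 11.9 and Npr3, a natriuretic peptide receptor, at 21.5 ± 7.503. The defining markers Pecam1 and Cdh5 had 1, 0, 2 and 4 and 0, 0, 2 and 8 counts in replicates 1 to 4, Kdr was at 3.25 ± 1.46, and Tie1 and Cldn5 had 0 counts. Of the neural list, Tubb3, a neuronal beta tubulin, was at 24.6 ± 5.25 CPM, whereas Sox10, Th and Stmn2 had 0 counts in all 4 libraries. The whole neural list summed to 23.0 to 32.6 CPM.

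Macrophage genes were uneven between the libraries. The 17 genes summed to 158, 83.9, 105 and 431 CPM in replicates 1 to 4. Csf1r, the receptor that macrophages need for survival, was at 28.3, 17.6, 18.3 and 82.3 CPM. The complement gene C1qa was at 8.84, 8.78, 6.59 and 40.5 CPM and the leukocyte phosphatase Ptprc (CD45) at 5.74, 1.95, 4.39 and 33.4 CPM. Replicate 4 was highest for 14 of the 16 members of at least 1 CPM, against 24.2% of all genes. In the first column no macrophage gene reached a mean of 50 CPM. Lyz2, the lysozyme of macrophages, had the most counts at 47.4 ± 28.1 CPM. The second column held 22.5% of the counts of Lyz2, so its level is uncertain. The erythroid list summed to 49.5, 89.8, 21.6 and 219 CPM, again with replicate 4 highest, and the embryonic globin Hbb-y supplied 38.0, 56.6, 14.3 and 176 CPM of it. Of 2 other embryonic globins, Hba-x was highest in replicate 2, at 0.884, 18.5, 1.46 and 15.05 CPM, and Hbb-bh1 in replicate 4, at 1.77, 3.90, 1.10 and 10.4 CPM. For the globins Hba-a1, Hba-a2 and Hbb-b1 the second column held 94.9, 94.9 and 98.0% of the counts. Their levels are uncertain, and the sums of the erythroid list are low readings. The part that blood cells have in the other levels of replicate 4 was not tested.

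Of 25 genes of epithelial junctions and of epithelial-to-mesenchymal transition, 12 reached a mean of 10 CPM, against 39.7% of all rows, and 3 had 0 counts. Cdh11, the cadherin of mesenchyme, stood at 1351 ± 161 CPM, and Cdh2 (N-cadherin) at 185 ± 42.9 with 29.9% of its counts in the second column. Cdh3 (P-cadherin), an epithelial cadherin, was at 174 ± 28.7 CPM. Cdh1 (E-cadherin) had 0, 0, 1 and 1 counts and the epithelial adhesion gene Epcam 1 count in all. The scaffold Tjp1 (ZO-1) was at 177 ± 9.01, the desmosomal Pkp2 at 126 ± 14.3, Jup at 76.6 ± 36.3 and Dsp at 38.4 ± 9.97 CPM. Epithelial splicing factor Esrp2 was at 16.3 ± 4.21 CPM, and its relative Esrp1, the epithelial factor Grhl2 and the claudin Cldn7 had 0 counts. Of the transcription factors of epithelial-to-mesenchymal transition, Zeb1, Zeb2 and Twist1 were at 79.6 ± 12.9, 70.7 ± 12.1 and 32.5 ± 3.18 CPM. Snai1 and Snai2 were at 4.96 ± 2.27 and 3.45 ± 2.93 CPM, the latter from 4, 8, 7 and 4 counts and at 2.0004 CPM without replicate 2. Per kb, these factors ran from 19.9 ± 1.95 for Twist1 through 13.7 ± 2.23 for Zeb1 and 6.18 ± 1.06 for Zeb2 to 3.06 ± 1.40 for Snai1 and 1.71 ± 1.45 for Snai2.

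Cell cycle genes were read in every library, with 26 of 26 at or above 1 CPM in each of the 4, against 50% of all rows. Ccnd2, a D-type cyclin, was at 1527 ± 255 CPM and Ccnd1 at 58.0 ± 13.8, which is 227 ± 38.1 and 15.5 ± 3.68 CPM per kb. The proliferation gene Mki67 was at 373, 168, 185 and 296 CPM, and Top2a, the topoisomerase of dividing cells, at 558, 286, 349.5 and 455 CPM. Both were highest in replicate 1 and lowest in replicate 2. Replicate 1 was highest for 17 of the 26 genes, against 30.0% of all genes, and replicate 2 lowest for 15, against 34.9%. Of the 5 inhibitors listed, Cdkn1a (p21) was at 261 ± 11.1, Cdkn2b (p15) at 225 ± 15.7, Cdkn1c at 91.7 ± 32.6, Cdkn1b at 59.4 ± 10.2 and Cdkn2a at 48.1 ± 12.6 CPM. Of 22 immediate early and stress genes, 17 reached a mean of 10 CPM, against 39.7% of all rows. The chaperone Hspa5 (BiP) led them at 1825 ± 351 CPM. The Fos family ran from Fosb at 0.733 ± 0.354 and Fos at 5.78 ± 1.88 to Fosl2 at 168 ± 9.86 CPM. Jun, Jund and Junb were at 85.2 ± 4.89, 86.9 ± 7.95 and 66.2 ± 13.99 CPM and Egr1 at 19.5 ± 9.32.

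Of 219 transcription factor genes listed, 167 reached 1 CPM in every library, against 50% of all rows. A mean of 10 CPM was reached by 133, against 39.7% of all rows, and 14 had 0 counts. Per kb the list was led by Tsc22d1, a leucine zipper regulator, at 154 ± 19.02 CPM per kb and by Ybx1, a cold shock domain protein, at 154 ± 24.7. The helix-loop-helix inhibitors Id3 and Id1 were at 146 ± 14.95 and 80.1 ± 5.06 CPM per kb. Atf4 of the amino acid response followed at 138 ± 8.72, Klf6 at 92.2 ± 13.1, Nfe2l1 at 86.5 ± 8.60 and Hmga2, an embryonic chromatin protein, at 81.3 ± 35.4. Hmga2 was 2.57-fold higher in replicate 1 than in the lowest library, and 30.4% of its counts lay in the second column. Bnc1 was the highest of the epicardial factors at 63.4 ± 7.40 CPM per kb, within 1 SD of Sox4 at 61.7 ± 8.65. The last of the first 15 were Ahr at 55.0 ± 11.2, Nr3c1 (glucocorticoid receptor) at 52.6 ± 6.79, Xbp1 at 52.5 ± 7.52, Jund at 52.1 ± 4.77 and Sp3 at 48.4 ± 5.23, which overlapped within their SDs.

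Families of factors were read unevenly. Of all rows, 39.7% reached a mean of 10 CPM. All 4 TEAD factors, the DNA-binding partners of YAP, exceeded 10 CPM, with Tead1 at 331 ± 93.7 and Tead4 at 10.6 ± 3.06 CPM. All 7 Smad genes exceeded 10 CPM, from Smad1 at 45.6 ± 9.54 to the inhibitory Smad7 at 159 ± 5.43 CPM. Of 5 GATA factors, Gata6 and Gata4 were at 107 ± 8.32 and 98.4 ± 24.0 CPM, Gata5 was at 3.88 ± 2.24 and Gata2 at 0. Of the T-box factors, Tbx20 was at 163 ± 24.4 CPM beside Tbx18, whereas Tbx5 was at 1.22 ± 0.756 CPM and Tbx2 and Tbx3 had 3 counts and 1 count over the 4 libraries. Of 17 Hox genes in the list only Hoxd8 exceeded 10 CPM, at 13.4 ± 3.76.

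Of 167 receptor genes, 134 reached 1 CPM in every library, against 50% of all rows. A mean of 10 CPM was reached by 113, against 39.7% of all rows, and 5 were at 0. Itgb1, the shared beta 1 chain of matrix-binding integrins, led at 743 ± 88.9 CPM per kb. It was followed by Tnfrsf12a, the TWEAK receptor, at 365 ± 49.7, by the thrombin receptor F2r at 312 ± 19.01, by the heparan sulfate proteoglycan Sdc4 at 267 ± 27.1 and by the tyrosine kinase Axl at 239 ± 36.1. Gpc3, a glypican of embryonic tissues, was at 181 ± 54.7 CPM per kb, the Wnt co-receptor Ptk7 at 129 ± 12.8 and the netrin receptor Unc5b at 117 ± 21.9. The alpha chain partners of Itgb1 with the most counts were Itgav at 758 ± 60.4, Itga3 at 258 ± 55.5 and Itga5 at 246 ± 38.9 CPM, and 12 of 20 integrin chains exceeded 10 CPM. Of 4 ErbB receptors, Egfr was at 251 ± 38.1 and Erbb2 at 50.4 ± 6.30 CPM, Erbb4 at 5.45 ± 1.73 and Erbb3 at 0.954 ± 0.386 CPM. Fgfr2 and Fgfr1 were at 183 ± 19.96 and 74.3 ± 7.33 CPM and Fgfr3 at 3.84 ± 1.61 CPM, while Fgfr4 had 1 count. Notch2 was at 84.8 ± 27.4, Notch1 at 15.7 ± 2.46 and Notch3 at 6.36 ± 2.61 CPM. Of 10 Frizzled receptors 7 exceeded 10 CPM, and of 9 plexins and neuropilins 8 did, among them Nrp2 at 297 ± 72.3 and Nrp1 at 228 ± 49.4 CPM.

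**Figure D4:**
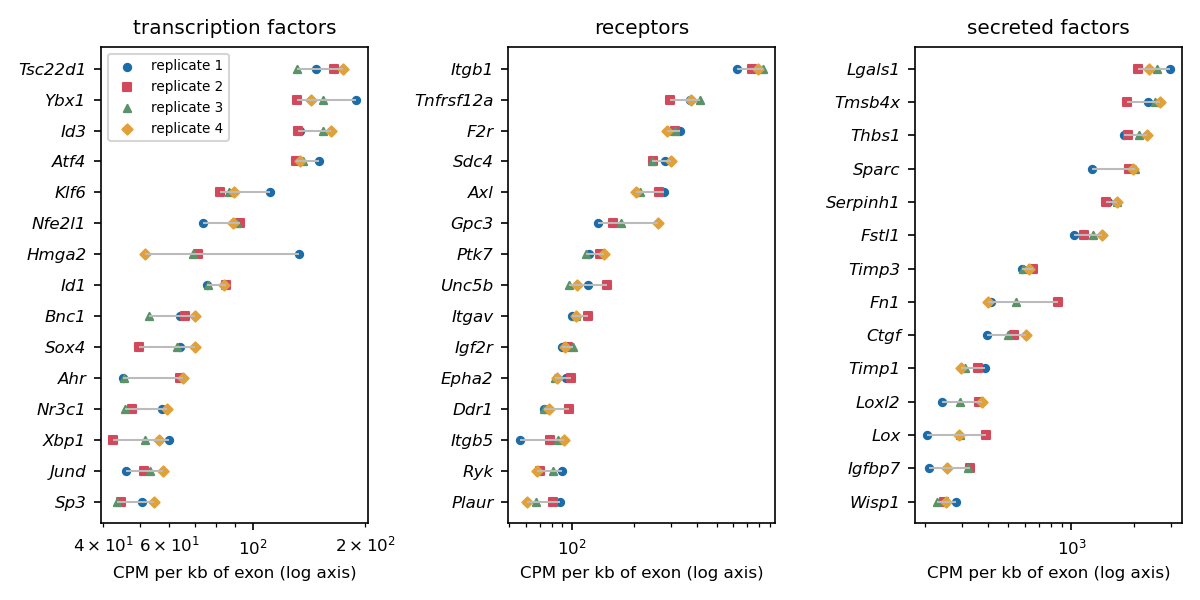
Genes among the 15 of highest level in CPM per kb of exon (horizontal log axis) among transcription factors, receptors and secreted factors, ordered by the mean, with 1 point for each of the 4 wild type libraries and a grey line over their range. Tsc22d1, Itgb1 and Lgals1 lead the 3 lists, at means of 154, 743 and 2489 CPM per kb.

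Of 220 secreted factor genes, 137 reached 1 CPM in every library, against 50% of all rows. A mean of 10 CPM was reached by 106, against 39.7% of all rows, while 25 had 0 counts. Lgals1 (galectin-1), Tmsb4x, Thbs1, Sparc and the collagen chaperone Serpinh1 (1563 ± 102 CPM per kb) led the list. Tmsb4x, which sequesters actin, and Serpinh1 act inside the cell, so the list is not of secreted products alone. Below them stood Fstl1 at 1209.8 ± 159 CPM per kb, the metalloproteinase inhibitor Timp3 at 612 ± 35.7, Fn1 at 554 ± 214 and the matricellular Ctgf at 507 ± 87.9. The lysyl oxidases Loxl2 and Lox, which crosslink collagen, were at 318 ± 62.7 and 295 ± 76.6 CPM per kb. Of 18 Wnt ligands 5 exceeded 10 CPM, Wnt11 at 124 ± 15.6, Wnt5a at 82.6 ± 21.4, Wnt9a at 52.8 ± 23.6, Wnt2 at 25.5 ± 6.47 and Wnt2b at 24.7 ± 8.78, and 7 were at 0. Of 11 FGF ligands only Fgf2 and Fgf9, a mesothelial FGF, exceeded 10 CPM, at 13.97 ± 1.81 and 12.9 ± 2.75. Tgfb3 was the TGF-beta ligand with the most counts, at 532 ± 122 CPM, with Tgfb2 at 45.6 ± 10.3 and Tgfb1 at 6.35 ± 7.69, or 2.61 without replicate 2. Bmp4 was at 54.8 ± 8.92 CPM, and Bmp2 had 1, 1, 0 and 0 counts. The chemokine Cxcl12 was at 661, 505, 1125 and 799.6 CPM and Csf1, the ligand of Csf1r, at 924, 1057, 489 and 583 CPM. Csf1 was higher in replicates 1 and 2 than in replicates 3 and 4, and Cxcl12 was higher in replicates 3 and 4. Sema3d and Sema3e, class 3 semaphorins, were at 413 ± 80.7 and 299 ± 49.1 CPM, and Pdgfc and Pdgfa at 47.8 ± 9.78 and 34.1 ± 2.89 CPM.

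Most genes varied little between the 4 libraries. Among 4222 genes with a mean of at least 50 CPM, the median ratio of highest to lowest library was 1.33. The ratio was under 1.5 for 3141 genes (74.4%), over 2 for 209 (4.95%) and over 3 for 52 (1.23%). With the lower limit of 20 CPM, 606 of 7188 genes (8.43%) exceeded 2-fold. The steadiest gene was Surf4, a cargo receptor of the endoplasmic reticulum, at 664, 663, 668 and 662 CPM, a coefficient of variation of 0.419%, below the 2.88% that counting alone gives.

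Lists differed in how many of their genes exceeded 2-fold. It was 12 of 24 for cell cycle genes, 30 of 94 for secreted factors, 6 of 16 for fibroblast genes and 5 of 15 for smooth muscle genes, read against the 8.43% of all genes. Transcription factors had 10 of 102, receptors 16 of 94, basement membrane genes 3 of 16 and epicardial genes 2 of 18. The 2 epicardial genes beyond 2-fold were the retinaldehyde dehydrogenase Aldh1a1, at 213, 374, 223 and 567 CPM, and the fibulin Efemp1, at 21.6, 40.0, 19.4 and 20.9 CPM.

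Beyond the sex-linked genes, Eln and Lars2 had the widest spreads. Eln, the elastic fibre protein elastin, was at 103, 5.85, 1319.8 and 244 CPM, a 225-fold range, and its mean of 418 ± 609 became 117 without replicate 3. Igfbp2, an IGF binding protein, was at 48.6, 142, 559 and 242 CPM and Csrp2, a LIM protein of smooth muscle, at 44.2, 20.5, 174 and 61.0 CPM, again with replicate 3 highest. Without that library their means were 144 and 41.9 CPM. Lars2, the mitochondrial leucyl-tRNA synthetase, was at 50.8, 5801, 63.3 and 28.4 CPM, and its mean of 1486 ± 2877 became 47.5 without replicate 2. The second column held 58.6% of the counts of Lars2, so its level is uncertain. Replicate 2 was also highest for Prrc2a (155 against 23.4 to 38.9 CPM), for the gene listed as Mll2, a histone methyltransferase (139.5 against 23.0 to 29.6), and for Tnrc18 (139.5 against 25.1 to 53.9). Pappa2, a protease of IGF binding proteins, was at 143, 471, 251 and 820.1 CPM, Itgbl1 at 15.9, 59.5, 76.5 and 100.3 and Megf6 at 23.4, 45.9, 49.4 and 125 CPM, all lowest in replicate 1 and highest in replicate 4. The imprinted RNA H19, chosen after its values were seen, was at 785, 572, 1031 and 2367 CPM.

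**Figure D5:**
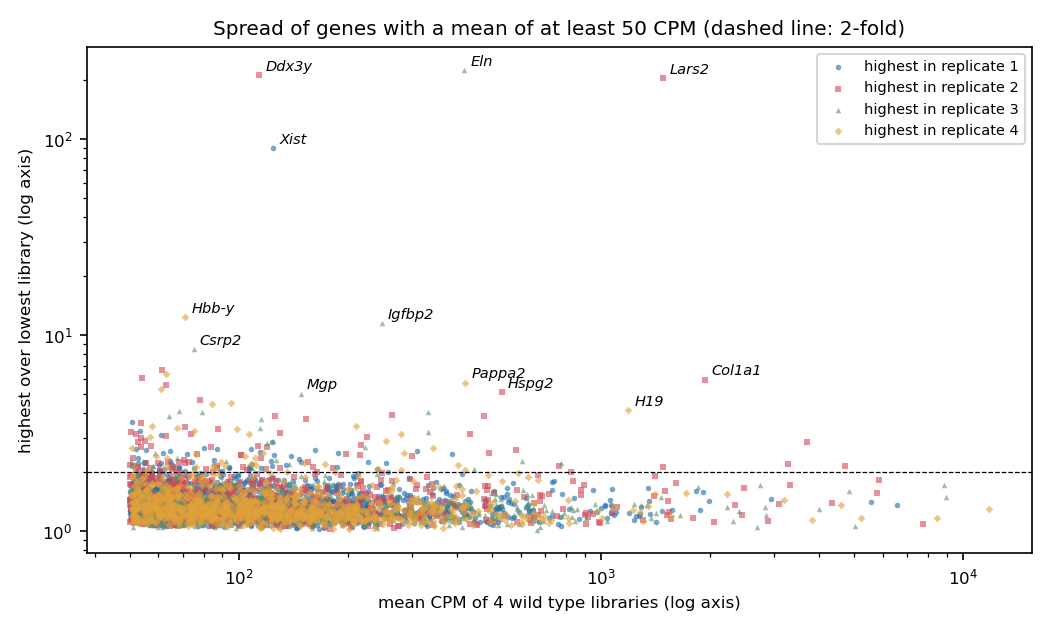
Ratio of the highest to the lowest of the 4 wild type libraries (vertical log axis) against mean CPM (horizontal log axis) for the 4222 genes with a mean of at least 50 CPM, with a dashed line at 2-fold, the colour and shape of a point for the library with the highest level, and a library under 3 counts set to 3 counts. The 209 genes above the line include Eln and Lars2, at 225-fold and 204-fold, and most of the cloud lies near the median of 1.33. Most counts of Lars2 lay in the second column, so its ratio is uncertain.

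The library with the highest level was recorded for each of the 209 genes. It was replicate 2 for 76 of them, replicate 1 for 59, replicate 4 for 44 and replicate 3 for 30. Over all 12606 genes of at least 1 CPM, the highest library was replicate 1, 2, 3 and 4 for 30.0, 26.1, 19.7 and 24.2%, and the lowest for 22.9, 34.9, 22.0 and 20.2%. The 76 genes highest in replicate 2 had a median exon length of 6712 bp and a median GC content of 54.4%, against 4056 bp and 48.3% over the 4222 genes. Genes such as Hspg2, Prrc2a, Tnrc18 and Mll2 were among them. The part that depth, length or GC content has in the levels of replicate 2 was not tested.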

How the data were processed

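RNA was measured in 4 wild type explant libraries, made with a TruSeq RNA v2 kit from PicoPure RNA, per the labels' protocols. The kit does not mark strand, so a gene and an antisense partner share their reads. TopHat, edgeR and mm9 are named, with no version, in the submitters' processing notes. Counter and annotation are not given in the sources used here. Every deposited table holds 22738 gene rows and 2 unnamed columns of whole-number counts, which the authors left unnormalized as far as the values show. The first column was used. The second held 16.6 to 19.6% of both and was high for genes with pseudogenes, so it was taken for counts of reads with several matches, an inference from the values. Rows repeating a name numbered 649 and were kept apart.

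Counts were scaled to the library total (CPM). Levels per kb used the union of exons in GENCODE M21 (GRCm38), another build than the notes name. Lengths were matched for 22224 rows, 20265 by symbol and 1959 by synonym. The 3-count floor and all depth statements cover counting error only. Spread was estimated with edgeR 4.0.16 (estimateDisp, filterByExpr, TMM) in R 4.3.3 and tested on simulated counts of known dispersion. DESeq2 1.42.0 gave alternative size factors, and Python 3.11.15 did the rest. With 1 group, nothing was tested and no p-value is given. No pair of libraries agreed within counting noise (chi-square per degree of freedom 4.94 to 7.71), so all 4 were kept.

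The members and the gene lists were chosen with earlier results of these data known. Named genes were the 8 markers given for the explant, the 15 genes of highest CPM, up to 8 highest and 5 lowest members of each list, up to 15 of the 3 factor lists, the 15 with the widest spread and the sex-linked genes. Members of families, junction, keratin and laminin genes beyond that rule were chosen after their values were seen. Some genes that this rule names are not reported here. Alternatives were other size factors, the sum of both columns, small RNAs left out of the total, rows of one name summed, other limits, transcript length and each library left out.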

Additional observations from a re-analysis of the deposited data

Results flagged for a closer look

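In 12 of 141 named genes of at least 10 CPM, or 8.51%, 1 library lay far from the other 3, which were close together. Chance gives such a gap in about 1 in 20 groups, but the genes checked include those named for their wide spread, so the 2 shares are not to be compared. The library was replicate 2 in 7 genes, replicate 4 in 3, replicate 3 in 2 and replicate 1 in 0.

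Replicate 2 was the high one for the collagen and perlecan genes, for desmin and plakoglobin and for 3 others. Its levels were 4745 CPM for Col1a1 (799 to 1206 in the others), 1294 for Hspg2 (252 to 291), 792 for Des (487 to 539), 131 for Jup (52.7 to 61.9), 155 for Prrc2a (23.4 to 38.9), 139.5 for Mll2 (23.0 to 29.6) and 5801 for Lars2 (28.4 to 63.3). The level of Lars2 is uncertain, as most of its counts lay in the second column. Replicate 4 was the high one for the macrophage genes C1qa, at 40.5 CPM (6.59 to 8.84), and Csf1r, at 82.3 CPM (17.6 to 28.3), and for the immediate early gene Junb, at 86.9 CPM (56.4 to 61.5). Replicate 3 was the high one for Acta2, at 5269 CPM (4932 to 4980.0), and for Zeb1, at 98.8 CPM (71.2 to 74.4). The gap for Acta2 is a small fraction of its level, since the other 3 libraries lay close together.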

How the results depend on the processing

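The biological coefficient of variation of 0.167 ran from 0.152 to 0.180 when 1 library was left out, the lowest without replicate 2, and was 0.181 without a filter on low counts. The number of genes at 1 CPM in every library, 11363, was 8167 at 10 CPM and 12414 at 1 count. The list medians and the share of the 100 most abundant genes moved by less than 1 SD of the libraries under every alternative run on them, though the macrophage median of 3.61 CPM per kb was 1.99 without replicate 4 and the neural median of 0.0843 was 0.0411 without replicate 1. For the share, a mean over the 4 libraries, this was fixed in advance when 1 library was left out. Of 234 named genes, 69 moved by more than 1 SD when both count columns were summed, 2 when rows of one name were summed and 0 under TMM, DESeq2 size factors or removal of small RNAs; a mean of 4 values cannot move by over 1 SD when 1 is left out. The alternative chosen after seeing the data, TMM scaling, gave 17 of 26 cell cycle genes highest in replicate 1, 14 of 16 macrophage genes highest in replicate 4 and 13 of 17 basement membrane genes highest in replicate 2 (11 on library totals). No paired analysis was possible because only 1 group was described and no value comes from a test. Depth limits genes under 3 counts, most of all in replicate 2.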
